A study of Mus musculus with 8 samples.

Results

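The genes described here are 9 complement components that macrophages are known to make: C1qa, C1qb, C1qc, C2, C3, C4b, Cfb, Cfp and Serping1. They were chosen by gene symbol, with no measured value in the rule, from the 16786 genes with a value in the 7 complete sample tables, and all 9 were found. Earlier results of these data were known when they were chosen. RNA was sequenced from tumor-associated macrophages (TAMs), sorted as CD45+F4/80+ cells from subcutaneous B16 melanomas on day 14. B16 is a pigmented melanoma cell line from C57BL/6 mice. TAM-WT denotes cells of 4 WT mice and TAM-KO cells of 4 Colec11-/- mice, with 1 library for each mouse. The mice were C57BL/6, and the study's methods give males of 8 to 10 weeks as the default and WT littermates as the controls. Both groups carried the same tumor line. The knockout is in every cell of the mouse, so a change in TAMs cannot be assigned to the loss of the gene in TAMs. Colec11 encodes CL-11, a soluble lectin that starts the lectin pathway of complement.

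Complement is a chain of plasma and tissue proteins in which recognition molecules activate proteases, and the proteases build convertases that cleave C3. The classical pathway starts with C1q bound to antibody or to cell surfaces, the lectin pathway with lectins bound to sugars, and both form a convertase from C4 and C2. The alternative pathway forms its convertase from C3 and factor B, and properdin stabilizes it. The liver supplies most complement in blood, whereas macrophages are a main source of C1q and properdin in tissues.

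The 7 complete libraries held from 16225362 to 17280267 reads on genes, and all 8 held from 10061535 to 10607640 reads on the 12572 genes that every table lists. The table of TAM-KO replicate 1 lacks 8 of the 9 components. For C2, Cfb, C3 and C4b its value was taken from the authors' table of the whole series, which lists genes picked for differing between TAM-WT and TAM-KO, and it entered the means but not the test. For C1qa, C1qb, C1qc and Serping1 no value of this library was used here, so that TAM-KO has n = 3. The labelled cell type was borne out by Cd68, the macrophage scavenger receptor, at 1337.02 to 2311.61 FPKM, and by Csf1r, the receptor for the macrophage growth factor, at 208.52 to 283.52 FPKM (reads per gene scaled by its length and the library's size). Summed FPKM of the 6 melanoma genes ran from 1912.3 to 4309 in TAM-WT and from 3732.8 to 4976.9 in TAM-KO, so transcripts of melanoma cells were present in every library. Of these 6 genes edgeR called 1 higher, Sox10 (log2 0.76, adjusted p = 0.0295), 5 were at an unadjusted p under 0.05, DESeq2 called 4, and the median log2 fold change was 0.62. Their part in the levels of the components was not tested. Colec11 itself was at 0.20 FPKM or below in all 8 libraries, with at most 4 counts in a library, so its level cannot check the genotype labels here.

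The genes lie in a few places of the genome. In the RefSeq annotation of GRCm38.p6, C1qb, C1qc and C1qa lie side by side on chromosome 4 (chr4:136880126-136898844), within 18.7 kb. Cfb (chr17:34856374-34862514) and C2 (chr17:34862602-34882100) are neighbours with 87 bases between them, and GENCODE M21 also has a read-through gene, Gm20547, over both. C4b (chr17:34728139-34743902) lies in the same region, 65189 bases from its near copy C4a (chr17:34809092-34823460). From the start of C4b to the end of C2 is 154 kb. C3 is 22.3 Mb further on the same chromosome (chr17:57203967-57228136), Cfp is on chromosome X (chrX:20925454-20931555) and Serping1 on chromosome 2 (chr2:84765360-84775444).

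C4b was among the genes that differed between the groups, and a read that matches both C4 genes has to be divided between them. Over 5204 aligned coding bases the GENCODE M21 transcripts of C4b and C4a were 96.1% identical. The stretch of 90 coding bases with the most differences holds 14 of them, within exon 21 of the 41 exons of C4b (chr17:34735430-34735519, GRCm38, minus strand). It is shown 5′ to 3′ for both genes because reads over it can be told apart, with the bases that differ in capitals.
C4b: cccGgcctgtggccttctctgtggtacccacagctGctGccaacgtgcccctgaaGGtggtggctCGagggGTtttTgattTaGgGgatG
C4a: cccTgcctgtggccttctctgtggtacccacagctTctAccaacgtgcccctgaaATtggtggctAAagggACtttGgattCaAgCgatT
C4a was listed at 0.05 to 0.14 FPKM, from 4 to 12 counts in a library, and how RSEM divided the shared reads was not examined.

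Promoter sequences (RefSeq, GRCm38.p6, 250 bases before to 50 after the start) were at hand for 4 of the 9 components, C1qb, C1qc, C3 and Cfp. They were searched on both strands for 5 short motifs: GAAANNGAA (interferon-stimulated response element), TTCNNNGAA (gamma interferon activation site), GGANTTTCC (NF-kB), GAGGAAGT (PU.1, an ETS factor of macrophages) and TTNNGNAA (C/EBP). The promoters of C3 and C1qc are printed because they held the matches, which are in capitals.
C3 promoter (chr17:57228087-57228386, minus strand): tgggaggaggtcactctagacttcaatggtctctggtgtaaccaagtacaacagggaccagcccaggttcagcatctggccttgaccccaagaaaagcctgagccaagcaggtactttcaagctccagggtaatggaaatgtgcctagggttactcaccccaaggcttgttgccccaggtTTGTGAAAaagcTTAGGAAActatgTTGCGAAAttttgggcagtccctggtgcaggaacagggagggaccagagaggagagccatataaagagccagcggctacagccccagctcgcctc
C1qc promoter (chr4:136892865-136893164, minus strand): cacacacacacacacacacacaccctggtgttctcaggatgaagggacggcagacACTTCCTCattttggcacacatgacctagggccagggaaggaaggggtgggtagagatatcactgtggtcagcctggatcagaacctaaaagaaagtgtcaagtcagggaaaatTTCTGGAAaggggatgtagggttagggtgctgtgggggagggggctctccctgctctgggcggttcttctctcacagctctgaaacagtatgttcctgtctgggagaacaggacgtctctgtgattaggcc
C3 held TTNNGNAA at 3 positions, 70, 58 and 45 bases before the start. Of 32851 mouse promoters of this length, 40.7% held the motif at least once and 3.6% at 3 or more positions. C1qc held GAGGAAGT on the minus strand 195 bases before the start, as did 3.2% of all promoters, and TTNNGNAA 81 bases before it. In C3 the C/EBP motif matched on both strands over the same bases at 45 bases before the start. No other matches overlap in these windows. The first 3 motifs, found in 8.56%, 8.3% and 1.25% of all promoters, had no match in the 4 windows, which says only that these letters are not there.

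Across the components, 3 rose in TAM-KO, C2, Cfb and C4b, the proteases of both convertases and the C4 subunit. None fell, and C1q, properdin and C3 did not pass the test. The test was edgeR's quasi-likelihood test on expected counts, where p was adjusted by Benjamini-Hochberg for all 12412 tested genes, with a call at an adjusted p of at most 0.05. Of the 8 components tested, 3 were called higher, where 4.58% of all tested genes were, and 0 were called lower, where 5.24% were. In either direction 9.81% of all tested genes were called. The 3 components also changed at least 2-fold, as 1.41% of all tested genes did upward and 1.12% downward. At an unadjusted p under 0.05 there were 5 components, 4 of them higher, and DESeq2 called 4 components. The median log2 fold change was 0.58 over the 8 components and 0.00 over all tested genes. The p-values reflect the spread between mice, and in bulk RNA more cells of a type and more RNA per cell cannot be told apart.

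**Figure D1:**
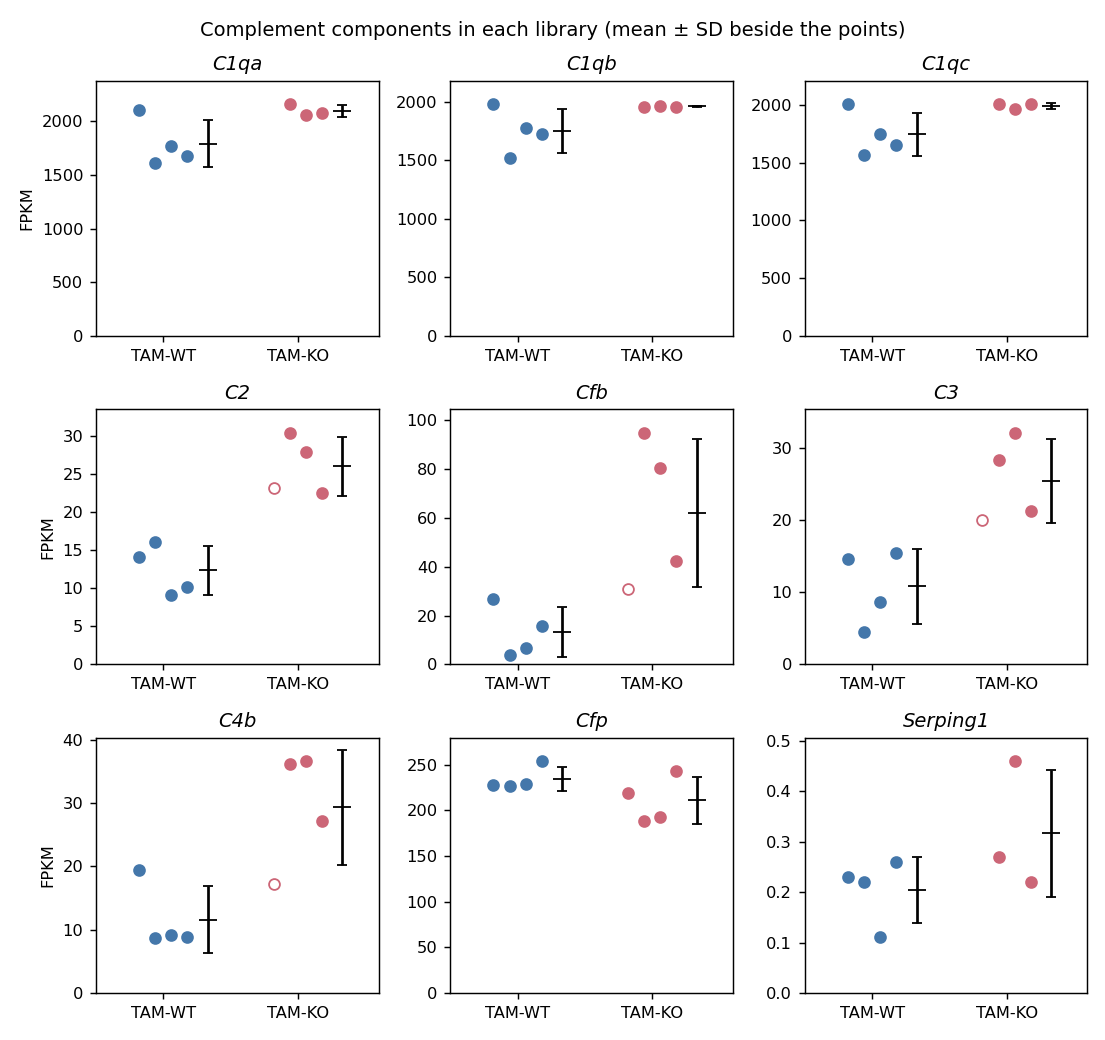
FPKM of the 9 complement components in each library, on an axis from 0 for each gene. Points are libraries of TAM-WT (blue) and TAM-KO (red), open points are values of TAM-KO replicate 1 from the table of the whole series, and bars give the mean ± SD. C2, Cfb and C3 do not overlap between the groups, whereas C4b does, at 1 library of each group.

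The genes of C1q, the recognition molecule of the classical pathway, were by far the most abundant components in both groups. C1qa encodes the A chain, and its level was 2108.46, 1612.73, 1776.06 and 1681.65 FPKM in TAM-WT replicates 1 to 4 and 2161.1, 2057.07 and 2082.36 FPKM in TAM-KO replicates 2 to 4. The TAM-KO libraries sat above or near the top of the TAM-WT range, and the groups overlapped through TAM-WT replicate 1. The log2 fold change was 0.13 ± 0.11 (SE; 95% interval -0.12 to 0.38, adjusted p = 0.447, edgeR), so changes beyond 1.30-fold higher or 0.923-fold lie outside the interval.

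C1qb, the B chain, had 1978.88, 1516.35, 1775.12 and 1724.78 FPKM in TAM-WT and 1956.41, 1965.44 and 1958.27 FPKM in TAM-KO. The 3 TAM-KO libraries were within 10 FPKM of each other, all below TAM-WT replicate 1 and above the other TAM-WT libraries. Its log2 fold change was 0.07 ± 0.11 (95% interval -0.19 to 0.32, adjusted p = 0.724, edgeR). C1qc, the C chain, had 2002.62, 1567.31, 1749.56 and 1655.93 FPKM in TAM-WT and 2004.39, 1959.25 and 2004.48 FPKM in TAM-KO, with the groups overlapping in the same place. Its log2 fold change was 0.09 ± 0.10 (95% interval -0.15 to 0.33, adjusted p = 0.58, edgeR).

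The 3 chains assemble in equal number into C1q, and their levels per length were nearly equal too. C1qb stood at 0.905 to 1.03 times C1qa, and C1qc at 0.927 to 0.985 times C1qa, in the 7 libraries. Together they took 0.389% to 0.498% of the reads on genes in TAM-WT and 0.496% to 0.509% in TAM-KO. C1qa ranked between 20 and 36 among 16786 genes by FPKM. The levels of the chains moved together over the 7 libraries, with Pearson's r of log2(CPM + 1) from 0.91 to 0.98 (CPM, counts scaled to a common library size). This is a description of libraries that share their depth and composition.

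C2, the protease of the classical and lectin convertase, doubled. Its level was 14.14, 16.04, 9.17 and 10.19 FPKM in TAM-WT and 23.23, 30.48, 27.99 and 22.49 FPKM in TAM-KO, with the first of the latter from the table of the whole series. Every TAM-KO library lay above every TAM-WT library. Between 4 TAM-WT and 3 TAM-KO libraries (2 to 4), C2, Cfb, C3 and C4b lay apart in this direction, as did 16.9% of all tested genes. In the opposite direction 7.36% lay apart, among which there was no component. The fold change was 2.04 (95% interval 1.57 to 2.65, log2 1.03 ± 0.16, adjusted p = 0.0182, edgeR). The call was lost without TAM-KO replicate 2 (adjusted p = 0.0804) and without TAM-KO replicate 3 (adjusted p = 0.0752), while the log2 fold change stayed between 0.93 and 1.15 over all 8 omissions.

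Cfb encodes factor B, the protease of the alternative convertase, and had the largest change of the components. Its level was 26.58, 3.66, 6.78 and 15.64 FPKM in TAM-WT and 30.93, 94.72, 80.12 and 42.42 FPKM in TAM-KO. The groups did not overlap, but TAM-WT replicate 1 lay just below TAM-KO replicate 1, and levels spread widely within each group, with a coefficient of variation of 78.1% in TAM-WT and 48.8% in TAM-KO. The fold change was 5.12 (95% interval 2.04 to 12.9, log2 2.36 ± 0.58, adjusted p = 0.0433, edgeR). When the series-wide value of TAM-KO replicate 1 entered the fit, the log2 fold change was 2.13 (adjusted p = 0.0508), and the call held in 3 of 8 omissions of a library. In TAM-WT, leaving out replicate 3 (adjusted p = 0.116) or replicate 4 (adjusted p = 0.0844) ended it. In TAM-KO, leaving out replicate 2 (adjusted p = 0.14) or replicate 3 (adjusted p = 0.126) did so. TAM-KO replicate 1, counted among the 8 omissions, was not in the reported fit of Cfb. Leaving it out kept the log2 fold change at 2.36, and only the adjustment over all genes changed (adjusted p = 0.0543, edgeR).

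Factor B and C2 are homologous proteases encoded side by side, and their balance varied. Per length, Cfb was at 0.228 to 1.88 times C2 in TAM-WT and at 1.33 in TAM-KO replicate 1 and 1.89 to 3.11 in the other TAM-KO libraries. In TAM-WT replicates 2 and 3 C2 was the more abundant, and in the 6 other libraries Cfb was. The ratio overlapped between the groups through TAM-KO replicate 1.

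C4b encodes C4, the partner of C2 in the convertase. Its level was 19.43, 8.73, 9.20 and 8.89 FPKM in TAM-WT and 17.26, 36.09, 36.60 and 27.21 FPKM in TAM-KO. TAM-KO replicate 1 lay below TAM-WT replicate 1, and the other 3 TAM-KO libraries lay above all of TAM-WT. The fold change was 2.68 (95% interval 1.75 to 4.13, log2 1.42 ± 0.27, adjusted p = 0.0244, edgeR), and with TAM-KO replicate 1 filled in, the log2 fold change was 1.24 (adjusted p = 0.0411). In TAM-WT, the call needed replicate 3 (adjusted p = 0.0761 without it) and replicate 4 (adjusted p = 0.0569), and in TAM-KO replicate 2 (adjusted p = 0.0918) and replicate 3 (adjusted p = 0.0892).

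C3, the component on which all pathways meet, had the same direction but did not pass the test. Its level was 14.66, 4.51, 8.73 and 15.41 FPKM in TAM-WT and 20.06, 28.40, 32.19 and 21.25 FPKM in TAM-KO. Every TAM-KO library lay above every TAM-WT library, with TAM-WT replicate 2 the lowest. The log2 fold change was 1.31 ± 0.39 (95% interval 0.41 to 2.2, adjusted p = 0.0675, edgeR), or 2.47-fold (95% interval 1.33 to 4.60). DESeq2 called it (adjusted p = 0.00783), and so did edgeR without TAM-WT replicate 2 (log2 1.03, adjusted p = 0.0137) or with libraries scaled to total reads (adjusted p = 0.0455). Per length, C3 was at 0.28% to 0.916% of C1qa in TAM-WT and at 1.02% to 1.56% in TAM-KO replicates 2 to 4.

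**Figure D2:**
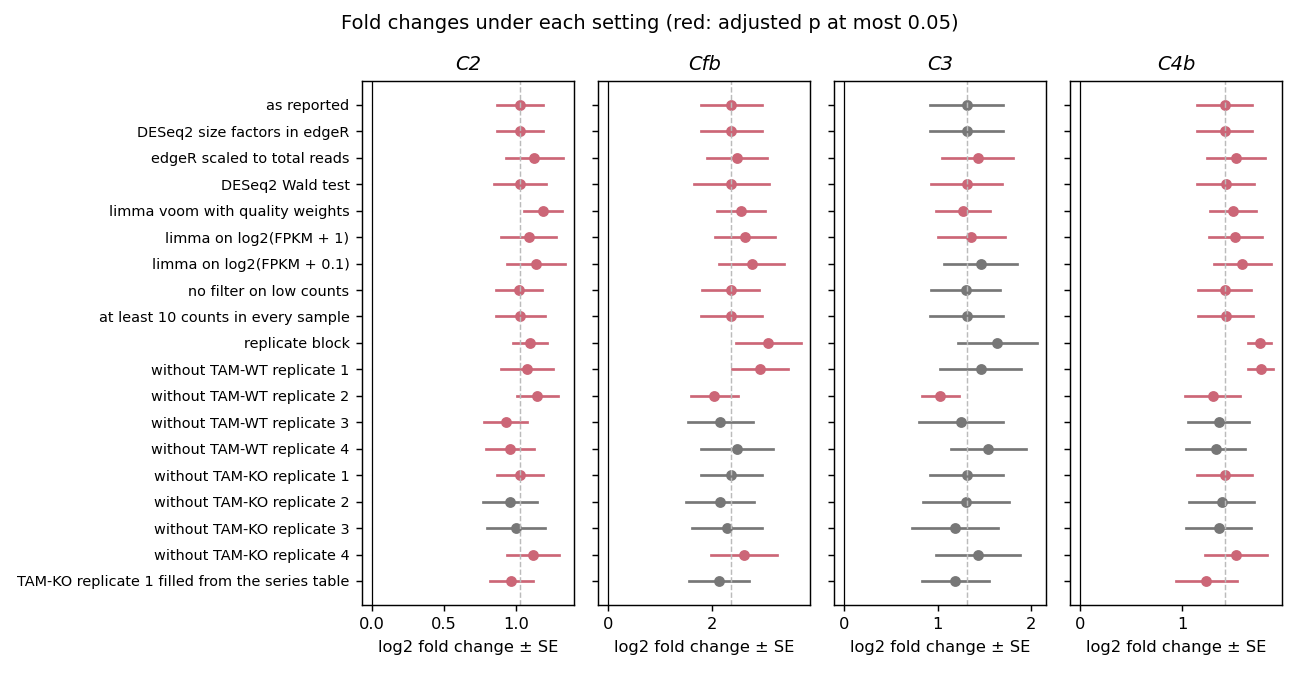
Log2 fold change ± SE of C2, Cfb, C3 and C4b (TAM-KO over TAM-WT) as reported and under 18 other settings. Red marks an adjusted p of at most 0.05 and the dashed line the value as reported. Every value is above 0, with Cfb between 2.04 and 3.07 and C2 between 0.93 and 1.19, while the calls come and go with single libraries.

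Properdin, encoded by Cfp, stabilizes the alternative convertase and is the only component listed in all 8 sample tables. Cfp was at 227.39, 226.62, 228.66 and 253.71 FPKM in TAM-WT and 218.99, 188.51, 192.56 and 243.06 FPKM in TAM-KO. Its TAM-KO libraries lay below TAM-WT except for TAM-KO replicate 4, which lay among them. The log2 fold change was -0.26 ± 0.11 (95% interval -0.50 to -0.01, adjusted p = 0.146, edgeR), and limma voom with sample quality weights called it lower (adjusted p = 0.03).

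Serping1 encodes the C1 inhibitor, which blocks C1r and C1s, and was close to absent. It was at 0.23, 0.22, 0.11 and 0.26 FPKM in TAM-WT and 0.27, 0.46 and 0.22 FPKM in TAM-KO replicates 2 to 4, from 3 to 12 counts in a library. It did not pass the filter on low counts. Without that filter its log2 fold change was 0.52 ± 0.43 (adjusted p = 0.511, edgeR), so no difference was detectable at this depth.

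By level per length, the C1q chains stood at the top, Cfp next and Serping1 at the bottom in both groups. In TAM-WT the means were 1794.7 ± 220 (SD, n = 4) for C1qa, 1748.8 ± 190 for C1qb, 1743.9 ± 188 for C1qc, 234 ± 13.1 for Cfp, 13.2 ± 10.3 for Cfb, 12.4 ± 3.25 for C2, 11.6 ± 5.25 for C4b, 10.8 ± 5.16 for C3 and 0.205 ± 0.0656 FPKM for Serping1. The 3 chains of C1q did not differ from each other beyond their spread, nor did Cfb, C2, C4b and C3, while the steps from C1q to Cfp, from Cfp to these 4 genes and from them to Serping1 were larger than the spread. In TAM-KO the means were 62.0 ± 30.3 for Cfb, 29.3 ± 9.11 for C4b, 26.0 ± 3.83 for C2 and 25.5 ± 5.80 FPKM for C3 (n = 4), beside 2100.2 ± 54.3 for C1qa (n = 3) and 211 ± 25.4 for Cfp (n = 4).

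The other genes of the pathway numbered 42 in the list used. A value was found for 34 of them and 18 were tested, of which 0 were called higher and 5 lower, beside the 4.58% and 5.24% of all tested genes. At an unadjusted p under 0.05 there were 10, and DESeq2 called 7 of them, 2 higher. Their median log2 fold change was -0.25. C1ra, the mouse C1r protease that C1q activates, was nearest to a call among those with a positive fold change, with 15.53, 8.94, 10.15 and 9.52 FPKM in TAM-WT and 14.06, 20.21, 21.01 and 18.44 FPKM in TAM-KO (log2 0.63, adjusted p = 0.0501, edgeR). As with C4b, TAM-KO replicate 1 lay below TAM-WT replicate 1. C1s1, a C1s protease gene that C1r activates, had the larger fold at a much lower level, with 0.13 to 0.30 FPKM in TAM-WT and 0.26 to 0.83 FPKM in TAM-KO (log2 1.24, adjusted p = 0.0649, edgeR, and 0.0297 by DESeq2).

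The 5 genes called lower were pattern receptors and receptors for complement fragments. In the lectin pathway Fcna, a ficolin of macrophages, fell by 1.97 on the log2 scale (adjusted p = 0.0274) and the scavenger collectin Colec12 fell by 1.58 (adjusted p = 0.0184), both with no overlap between the groups. The receptors for the C5 fragment, C5ar1 (log2 -1.54, adjusted p = 0.0482) and C5ar2 (log2 -2.86, adjusted p = 0.0285), were low also in TAM-WT replicate 4. Vsig4, the macrophage receptor for C3 fragments, fell by 3.23 (adjusted p = 0.0124) from 0.89 to 1.73 FPKM in TAM-WT to 0 to 0.30 FPKM in TAM-KO. Factor D, which cleaves factor B, was at 0.12 FPKM or below, and Hc, the gene of C5, was under 1 FPKM in all libraries that list it.

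**Figure D3:**
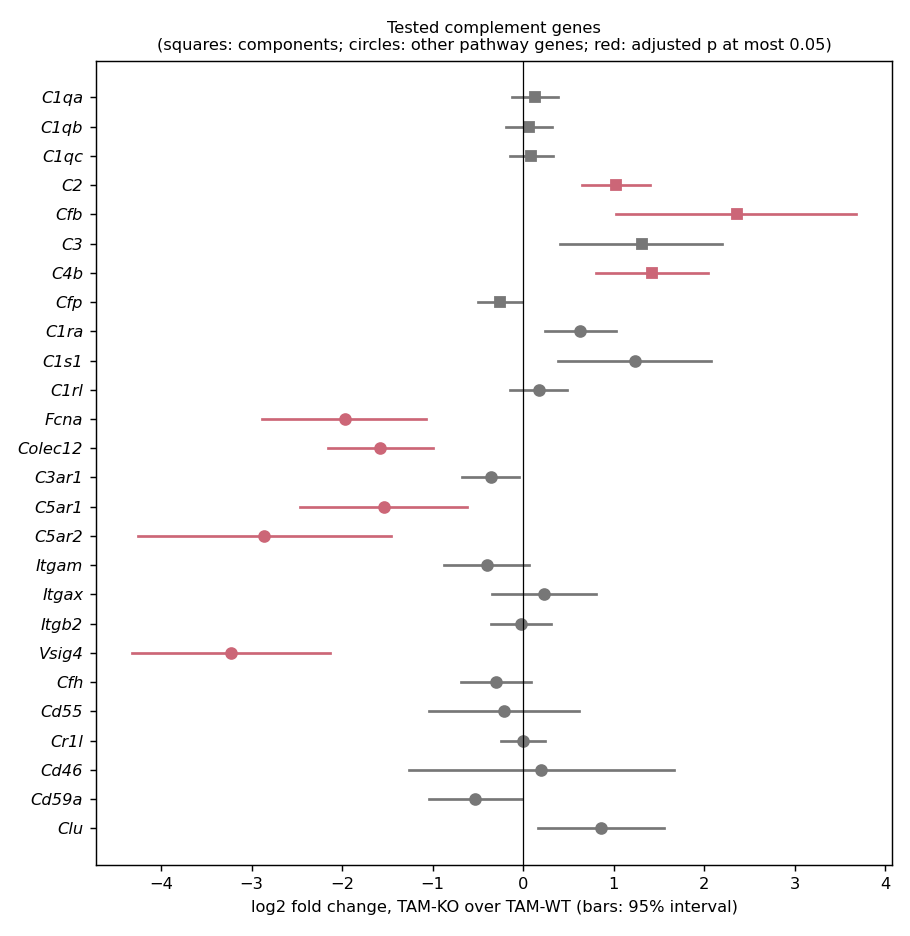
Log2 fold change of TAM-KO over TAM-WT with its 95% interval for the 8 tested components (squares) and the 18 other tested complement genes (circles). Red marks an adjusted p of at most 0.05. C2, Cfb and C4b lie to the right of 0 and Fcna, Colec12, C5ar1, C5ar2 and Vsig4 to the left, while the intervals of the C1q genes are narrow and span 0.

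Cfb, C3 and C4b had like patterns over the libraries of both groups, and C2 was less like Cfb and C3. Pearson's r of log2(CPM + 1) over the 7 complete libraries was 0.96 between Cfb and C3, 0.94 between Cfb and C4b and 0.84 between C3 and C4b. C2 gave 0.88 with C4b, 0.76 with Cfb and 0.60 with C3. Within TAM-WT, C4b differed little between replicates 2 to 4, whereas Cfb and C3 were both lowest in replicate 2. C2 went the other way and was highest of TAM-WT in replicate 2 (16.04 FPKM). Among 9268 other genes of mean CPM of at least 10, those with the highest r to Cfb were Gbp3, Ifi47 and Gbp9 (0.996 to 0.997), and those with the highest r to C3 were Ifi203, Slfn1 and Vasp (0.995 to 0.998). For C4b they were Batf, Krit1 and Sting1 (0.988 to 0.996), and for C2 Agrn, Syne2 and St3gal4 (0.994 to 0.996). For the C1q chains they included Gpr108, Ubr2 and Adap2 (0.971 to 0.987), and for Cfp Slc27a1, Dgkd and Arhgap10 (0.986 to 0.996). These are the highest of many values over few libraries. The 7 libraries come from both groups, so a difference between TAM-WT and TAM-KO enters r. The values describe likeness of pattern only.

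Several interferon gamma response genes were higher in TAM-KO, and lymphocyte genes had their highest sums there. Summed FPKM of 10 interferon gamma response genes was 414, 176, 206 and 322 in TAM-WT and 832, 1033.5 and 558 in TAM-KO replicates 2 to 4, with 536 in TAM-KO replicate 1, and 5 of the 10 were called higher. TAM-WT replicate 1, with the highest Cfb and C4b of its group, also had the highest sum, and TAM-WT replicate 2, with the lowest Cfb and C3, had the lowest. Of C2, Cfb, C3 and C4b, only Cfb had the order of the sums throughout TAM-WT. C4b was slightly higher in replicate 3 (9.2 FPKM) than in replicate 4 (8.89 FPKM). C3 was highest in replicate 4 (15.41 FPKM), and C2 in replicate 2 (16.04 FPKM). The 5 T cell genes summed to 12.1 in TAM-WT replicate 1, to 0.46 to 0.90 in the other TAM-WT libraries and to 14.0 to 41.9 in TAM-KO replicates 2 to 4, with 23.3 in TAM-KO replicate 1. None of the 5 was called by edgeR, all 5 were at an unadjusted p under 0.05, and DESeq2 called 1. The 6 NK cell genes summed to 6.94 in TAM-WT replicate 1, to 0.17 to 0.53 in the others and to 10.9 to 29.3 in TAM-KO replicates 2 to 4. Nkg7, a granule gene of NK and T cells, alone was at 5.82 FPKM in TAM-WT replicate 1 and 9.94 to 27.73 FPKM in TAM-KO. Ncr1, Klrb1c, Gzma and Eomes were under 1 FPKM in all libraries that list them. Both of the 2 that were tested, Nkg7 and Eomes, were called higher. The 6 monocyte genes ran from 96.5 to 227 in TAM-WT and from 304 to 451 in TAM-KO replicates 2 to 4, with 3 called higher, and 4 of them summed to 300.0 in TAM-KO replicate 1.

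The sums of the other marker lists are given for TAM-WT and for TAM-KO replicates 2 to 4, since TAM-KO replicate 1 lacks some of their genes. The 6 macrophage genes summed to 2385.7 to 3060.2 in TAM-WT and 1976.6 to 2594.6 in TAM-KO, with 0 called by edgeR, 3 at an unadjusted p under 0.05 and 3 by DESeq2. Of these 3, Cd68 (log2 -0.55) and Mertk (log2 -0.35) were lower in TAM-KO, and Fcgr1 (log2 0.49) was higher. The 7 fibroblast genes, from a cell type that makes C3, C4b and Serping1, summed to 2.37 to 7.04 in TAM-WT and 3.34 to 5.15 in TAM-KO, with Dcn, Lum, Pdgfra and Pdgfrb under 1 FPKM in all libraries. The endothelial genes summed to 2.21 to 5.81 and 5.43 to 9.87, the B cell genes to 4.44 to 7.19 and 5.75 to 10.9, the neutrophil genes to 26.7 to 55.0 and 27.4 to 48.5, and the dendritic cell genes to 7.26 to 17.6 and 9.27 to 11.5, in TAM-WT and TAM-KO. In TAM-KO replicate 1, 5 of the 6 neutrophil genes summed to 178, above every other library, and 5 of the 6 endothelial genes to 3.88, within the TAM-WT range. The neutrophil gene S100a8 (log2 2.68, adjusted p = 0.0481, edgeR) and 1 dendritic cell gene were called higher. Mmp8, the most abundant neutrophil gene (log2 -1.22, adjusted p = 0.0603, edgeR), and the dendritic cell gene Cd209a (log2 -1.01, adjusted p = 0.065, edgeR) went the other way. At an unadjusted p under 0.05 there were 3 neutrophil and 2 dendritic cell genes, and DESeq2 called 3 and 2. No endothelial or B cell gene was called by edgeR. Of each, 1 was at an unadjusted p under 0.05, and DESeq2 called 1 endothelial and 0 B cell genes. The part of these cells and of the interferon response in the levels of C2, Cfb, C3 and C4b was not tested.

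**Figure D4:**
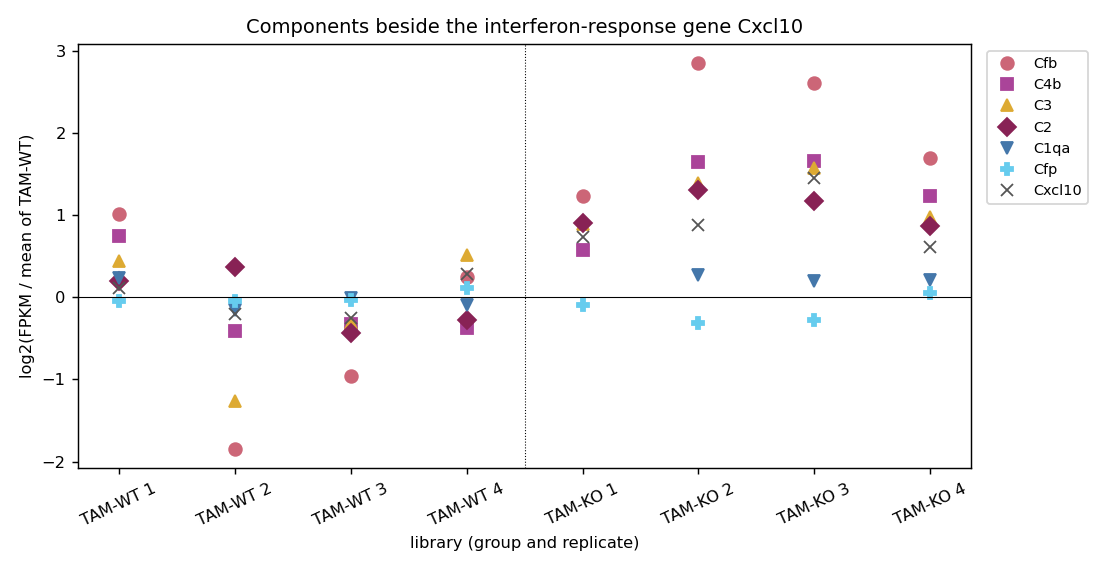
Level of Cfb, C4b, C3, C2, C1qa and Cfp in each library as log2 of FPKM over the mean of TAM-WT, beside the interferon-response gene Cxcl10. Each point is 1 library, C1qa has none in TAM-KO replicate 1, and the dotted line divides the groups. Cfb runs from its lowest in TAM-WT replicate 2 to its highest in TAM-KO replicate 2, while C1qa and Cfp stay close to 0.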

How the data were processed

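RNA of sorted CD45+F4/80+ TAMs from 4 WT and 4 Colec11-/- mice was sequenced on a BGISEQ-500. Groups were taken from the labels. The authors aligned reads and estimated, with RSEM, the expected counts that they deposited without normalization. They also deposited FPKM, relative to gene length and mapped reads, and TPM, which was not used here. The submitters' processing notes name HISAT2 2.0.4, Bowtie2 2.2.5, RSEM 1.2.12 and GRCm38.p6. The authors' comparison table also holds log2 ratios, p-values and q-values of their own, none of which was used.

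The table of TAM-KO replicate 1 has no usable value for 4214 of 16786 genes; its FPKM for 1188 of these came from the table of the whole series, which equalled the sample tables within 0.01 in 30780 of 30780 shared values. That table holds 3996 genes. A line of TAM-KO replicate 1 with parts of 2 genes, a line of TAM-KO replicate 2 without a gene ID, and 629 values of TAM-KO replicate 1 for genes with no value elsewhere were left out.

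Expected counts were rounded and tested with edgeR 4.0.16 in R 4.3.3 (TMM, filterByExpr, quasi-likelihood), with 9396 genes on 8 libraries and 3016 on the 7 complete ones, and p adjusted over both by Benjamini-Hochberg. The test was tested on simulated data. Means ± SD are of FPKM, and the fitted SE includes the variation of mice within a group. Alternatives were DESeq2 1.42.0, DESeq2 size factors, total reads, limma 3.58.1 (voom with quality weights, or FPKM on the log2 scale with a pseudocount of 1 or 0.1), omission of the low-count filter, a minimum of 10 counts per sample, a replicate block, an adjusted p of 0.01, a fold of at least 2, TAM-KO replicate 1 filled in, and each library left out.

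The components, gene lists and motifs were chosen with earlier results of these data known. Named genes are the components, other complement genes that were called or had a mean FPKM of at least 10, C4a, Colec11, 2 genes per cell type list (its most abundant), and the 3 genes closest in pattern to each component. Factor D, Hc, C1s1, Sox10, Mertk, Fcgr1 and the fibroblast and NK cell genes given as under 1 FPKM are named outside this rule. The values of 1 gene that the rule names are not reported here. The authors' counting is not stated to use strand.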

Additional observations from a re-analysis of the deposited data

Results flagged for a closer look

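Among 72 groups of 4 libraries over the 44 genes that the naming rule selects, not all of which appear in the text, 5 held a library far from the other 3, where chance gives about 1 in 20, or 3.6. For the components, C4b stood at 19.43 FPKM in TAM-WT replicate 1, beside 8.73 to 9.20 in the other TAM-WT libraries, and Cfp at 253.71 FPKM in TAM-WT replicate 4, beside 226.62 to 228.66. TAM-WT replicate 1 also stood apart in Cd3g, a chain of the T cell receptor complex, at 4.58 FPKM beside 0.15 to 0.23, and in Nkg7, a granule gene of NK and T cells, at 5.82 FPKM beside 0.10 to 0.21. S100a8, an abundant neutrophil gene, stood at 73.46 FPKM in TAM-KO replicate 1, beside 9.13 to 15.83 in the other TAM-KO libraries. Without TAM-WT replicate 1 the log2 fold change of C4b was 1.77 and its call held (adjusted p = 0.00324, edgeR).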

How the results depend on the processing

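The direction of C2, Cfb, C3, C4b and Cfp held under all 18 alternatives, and C1qb turned to -0.01 without TAM-WT replicate 2. Components called higher (3 as reported) numbered 0 to 4 with 1 library left out: 1 without TAM-WT replicate 3 or TAM-WT replicate 4, and 0 without TAM-KO replicate 2 or TAM-KO replicate 3. They numbered 0 at an adjusted p of 0.01. Components called lower numbered 1 with limma voom and 0 to 0 in the omissions. Other complement genes called higher numbered 1 with total reads, log2(FPKM + 1), log2(FPKM + 0.1) or no filter, 2 with DESeq2 or limma voom, and 0 to 2 in the omissions. Those called lower numbered 3 with log2(FPKM + 1), log2(FPKM + 0.1) or at least 10 counts, 0 at an adjusted p of 0.01, and 0 to 6 in the omissions. Same-numbered libraries did not deviate together (r of -0.374, 0.038, -0.255 and 0.283). This gave no sign that the numbers pair them, but so few libraries cannot exclude a pairing. The replicate block left 3 other complement genes called lower and changed no other count by over 1.5 times. Over all genes 1218 were called, 3625 with limma voom, 2252 with DESeq2 and 77 without TAM-KO replicate 2 or TAM-KO replicate 3. Scaling by log2(FPKM + 0.1) moved the median of all genes to 0.11. The cause of these changes was not tested.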
